A study of Mus musculus with 6 samples.

Results

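The enzymes described here are those that break down galactose and make UDP-sugars, followed in 4T1 mammary carcinoma clones of 2 kinds. The set is 8 genes of the 19179 in the files, found by gene symbol, and all 8 were found once each: Galm, Galk1, Galk2, Galt, Pgm1, Pgm2, Ugp2 and Ugdh. They were chosen with earlier results of the same libraries known, Galk1 for its difference between the kinds of clone. Their differences between the groups are therefore given as descriptions, with no p, and where the fit over all genes called some of them, that count supports nothing.

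4T1 is a mouse mammary carcinoma line of the BALB/C strain that spreads spontaneously in its host. Cells were seeded at 1 per well, grown for 14 days in RPMI-1640 medium without any other treatment named in the labels, and clones were collected, 10 of each kind. RNA sequencing gave 3 libraries from clones labelled as breast cancer stem cells (stem-labelled) and 3 from clones labelled as breast cancer cells (other). The labels do not say by what a clone was assigned to a kind, nor whether a library pools several clones.

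In animal cells galactose is taken through the Leloir pathway. The mutarotase turns it to the form that the kinase uses, galactokinase adds a phosphate, and the uridyltransferase exchanges galactose 1-phosphate for the glucose 1-phosphate of UDP-glucose, giving UDP-galactose. Phosphoglucomutase links glucose 1-phosphate with glucose 6-phosphate of glycolysis, and UDP-glucose pyrophosphorylase makes UDP-glucose from glucose 1-phosphate. UDP-glucose dehydrogenase oxidizes UDP-glucose to UDP-glucuronic acid, a precursor of hyaluronan and of the chains of proteoglycans. In tumours these sugars feed the glycans of the cell surface and the matrix.

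Galk1, the galactokinase, was 34.0-fold lower in stem-labelled clones. Galk2, which resembles Galk1 in sequence and acts on N-acetylgalactosamine, was 2.35-fold higher. The enzymes after them differed far less: Galt, Ugp2, Ugdh and both phosphoglucomutases had ratios of group means (stem-labelled over other) from 0.677 to 1.31. Galm, the mutarotase, was close to undetected in both kinds of clone. RNA from whole libraries cannot tell fewer cells that express a gene from less RNA per cell.

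Values are RPKM as the authors deposited them, that is reads scaled to gene length in kilobases and to a library size the authors set. Each change is a difference of mean log2(RPKM + 1), stem-labelled minus other clones, and its SE comes from a limma fit over 10097 genes that reached 1 RPKM in at least 3 libraries. The added 1 makes changes of low genes smaller. An adjusted p under 0.05 counts as called. Of the 8 genes 7 entered that fit, each above 1 RPKM in all 6 libraries, and Galm did not. The fit called 5577 of all tested genes (55.2%), with 29.9% of all tested genes higher and 25.4% lower in stem-labelled clones. Of the 7 genes 2 were called, Galk2 as higher and Galk1 as lower, against 55.2% of all. After the correction for length and GC content described below it called the same 2, against 47.8% of all tested genes, and with libraries rescaled to their summed reads 5, against 71% of all. The groups did not overlap for 5 of the 7, higher for 2 and lower for 3, against 63.5% of all tested genes, 35.7% higher and 27.8% lower. Since the genes were chosen on this contrast, nothing is read from these counts.

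The libraries differed between the kinds in ways that touch every value. The stem-labelled libraries held 21196572 to 22838870 reads in genes, or 0.658 to 0.757 of the library size behind the RPKM, and the libraries of other clones 15357608 to 16830762, or 1.23 to 1.53 of it. The median change of all tested genes was 0.11, and 0.86 once each library was rescaled to its summed reads, where 5926 genes were called higher and 1245 lower, against 3014 higher and 2563 lower as deposited. Changes also followed gene length, with medians of -1.17 in the shortest and 0.71 in the longest decile. Most changes below are followed by the value corrected for both length and GC content. The kind of clone and the making of the libraries cannot be told apart as the source of these trends. Of the defining markers of carcinoma cells, Epcam stood at 50.2 to 59.8 RPKM in stem-labelled and 53.5 to 58.5 RPKM in other clones, and all 4 epithelial markers were present in each library. The other 3 differed: Cdh1, which encodes E-cadherin, stood at 59.8 to 77.8 RPKM in stem-labelled and 13.7 to 17.5 RPKM in other clones. The keratin Krt8 stood at 482 to 767 RPKM in stem-labelled and 849 to 1505 RPKM in other clones. The keratin Krt18 stood at 298 to 490 RPKM in stem-labelled and 930 to 1793 RPKM in other clones. The epithelial list summed to 910 to 1390.2 RPKM in stem-labelled and 1855 to 3368 RPKM in other clones. The leukocyte marker Ptprc and the endothelial marker Kdr stayed under 0.1 RPKM in every library. Of the leukocyte list 3 of 6 genes were in the files, and they summed to 12.2 to 39.9 RPKM in stem-labelled and 6.09 to 29.3 RPKM in other clones, almost wholly from Cd68, a lysosomal gene. Of the endothelial list 2 of 3 genes were in the files, and they summed to 0.0234 to 0.0672 RPKM in stem-labelled and 0.0129 to 0.0539 RPKM in other clones. Of the fibroblast list 4 of 5 genes were in the files, and they summed to 1.68 to 3.38 RPKM in stem-labelled and 0.396 to 1.01 RPKM in other clones, nearly all of it Pdgfra. Itgam, Col1a2 and Dcn were at 0 in all 3 libraries of other clones, and none of the markers was at 0 in all 6 libraries. The part of these markers in the results was not tested.

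**Figure D1:**
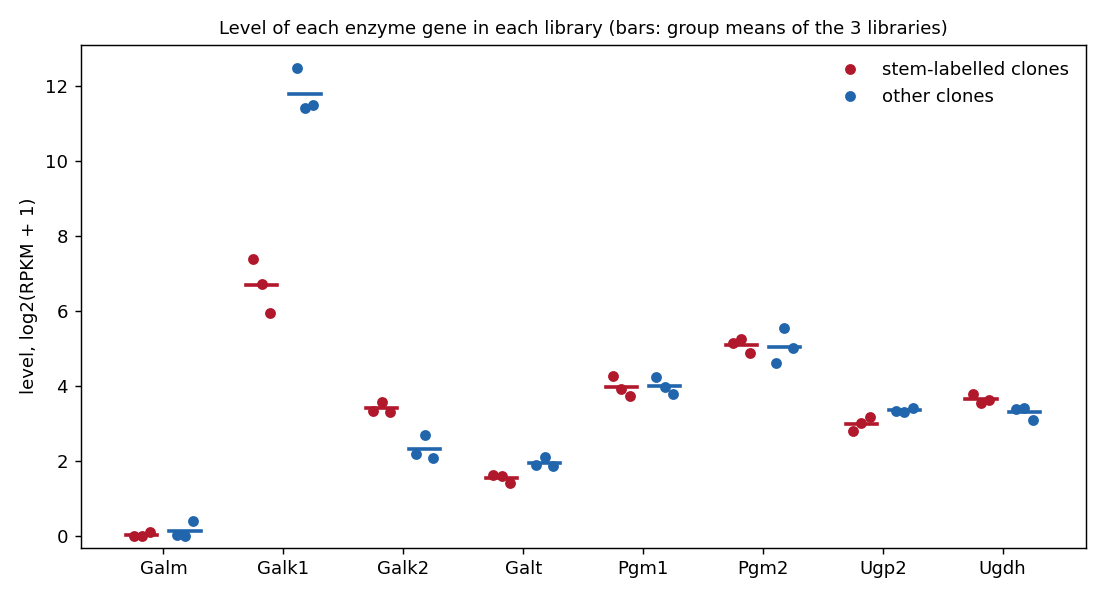
Level of each gene as log2(RPKM + 1) on the vertical axis, 1 point per library and a bar at the mean of the 3 libraries, with stem-labelled clones in red on the left and other clones in blue on the right of each gene. Galk1 lies far lower in stem-labelled clones, with means of 112 RPKM in stem-labelled against 3802 RPKM in other clones, and Galm lies near 0 in all 6 libraries.

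Galk1 (ENSMUSG00000020766, GRCm38 chromosome 11, 116008457 to 116012719, minus strand) commits galactose to the pathway by phosphorylating it. Its level was 168, 106 and 61.4 RPKM in stem-labelled replicates 1 to 3 and 5759.7, 2747 and 2899 RPKM in replicates 1 to 3 of other clones. The highest stem-labelled library lay far below the lowest of other clones, so that the groups did not overlap, as was the case in one direction or the other for 63.5% of all tested genes. The change was -5.11 ± 0.45, -3.66 after the correction and -4.17 on rescaling. Among the 10097 tested genes it was the fourth lowest. These values rest on 14014 reads in stem-labelled and 185626 in the other libraries.

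In other clones Galk1 was among the most abundant transcripts of any kind. It ranked 254, 419 and 565 by RPKM in stem-labelled replicates 1 to 3, and 23, 39 and 55 in replicates 1 to 3 of other clones. Galk1 alone took 0.0311%, 0.0198% and 0.0131% of the reads in genes of stem-labelled libraries, against 0.573%, 0.313% and 0.266% in the other libraries. This share does not use the authors' library totals, but it still carries the length trend described above. The groups did not overlap by the share either, for which no count over all tested genes was made. Replicate 1 was the highest in both groups, and the standard deviation was a similar part of the mean in both, 47.7% in stem-labelled and 44.6% in other clones.

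No 50-base stretch of the longest Galk1 transcript is found in transcripts of other GENCODE M21 genes, and no exon of another gene overlaps it. The gene next to it on the lower side, 44 bases away and on the plus strand, is Itgb4, the integrin beta 4 gene. Itgb4 moved in the opposite direction, with 43.9, 27.2 and 41.2 RPKM in stem-labelled and 10.8, 16.0 and 12.1 RPKM in other clones (1.45 ± 0.25, limma adjusted p = 0.00131, 1.50 after the correction). On the higher side, at 9192 bases, lies the histone variant gene H3f3b, with 231 ± 5.06 RPKM in stem-labelled and 255 ± 33.6 RPKM in other clones (SD, n = 3 each), where the groups overlapped (-0.13 ± 0.25, limma adjusted p = 0.674). The strong difference of Galk1 was thus not shared by the gene on either side.

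Galk2 (ENSMUSG00000027207, chromosome 2, 125859109 to 125984299, plus strand) belongs to the same enzyme family but prefers N-acetylgalactosamine, which it phosphorylates for salvage. It stood at 9.24, 11.1 and 8.98 RPKM in stem-labelled and 3.61, 5.56 and 3.30 RPKM in other clones. All 3 stem-labelled libraries were above all 3 others, opposite to Galk1. The change was 1.08 ± 0.22, 0.89 after the correction and 1.87 on rescaling. It lies in the eighth length decile of tested genes, where 42.6% were called higher. Of its exon bases 0.509% are shared with Cops2 and 4.65% with Fam227b, genes that run antisense to it, and whether counting used strand is not given in the sources used here. Cops2 was itself lower, at 9.32 ± 3.21 RPKM in stem-labelled against 69.9 ± 47.0 RPKM in other clones (SD, n = 3 each), and its part in the Galk2 reads was not tested.

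Because both kinases are measured in the same library, their ratio needs no scaling between libraries, but they differ in length (1406 bases for Galk1 and 6088 for Galk2) and the ratio carries the length trend. Galk1 exceeded Galk2 by 18.1, 9.57 and 6.84 times in stem-labelled clones and by 1595, 494 and 880 times in other clones. Galk1 was the more abundant kinase in all 6 libraries, and by far more in other clones. The change of Galk1 less that of Galk2 was -6.19 on the log2(RPKM + 1) scale and -4.55 after the correction.

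The promoter windows of the 2 kinases and of Galt, 300 bases from 250 before to 50 after the start in RefSeq on GRCm38.p6, are shown because the 3 genes stand beside each other in the pathway and differ in direction and in level. Capitals mark 3 motifs on either strand. The first is the GC box with the letters GGGCGG, known for binding factors of the SP family. The second is the CCAAT box, bound by NF-Y and spelled as named. The third is the E-box with the letters CACGTG, bound by basic helix-loop-helix factors. No matches overlap each other in these windows. They are, on chr11:116012670-116012969 (minus strand), chr2:125858859-125859158 (plus strand) and chr4:41755267-41755566 (plus strand):
Galk1: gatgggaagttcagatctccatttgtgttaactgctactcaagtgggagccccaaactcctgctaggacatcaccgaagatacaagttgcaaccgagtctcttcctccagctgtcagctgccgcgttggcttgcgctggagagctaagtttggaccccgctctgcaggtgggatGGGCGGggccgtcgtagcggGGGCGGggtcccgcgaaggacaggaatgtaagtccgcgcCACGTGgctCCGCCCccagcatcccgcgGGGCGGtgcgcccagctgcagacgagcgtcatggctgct
Galk2: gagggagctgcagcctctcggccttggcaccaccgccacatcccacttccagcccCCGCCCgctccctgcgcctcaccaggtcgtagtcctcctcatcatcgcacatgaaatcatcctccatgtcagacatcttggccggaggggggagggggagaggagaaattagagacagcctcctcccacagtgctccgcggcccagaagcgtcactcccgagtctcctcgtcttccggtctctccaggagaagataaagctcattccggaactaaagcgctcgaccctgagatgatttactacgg
Galt: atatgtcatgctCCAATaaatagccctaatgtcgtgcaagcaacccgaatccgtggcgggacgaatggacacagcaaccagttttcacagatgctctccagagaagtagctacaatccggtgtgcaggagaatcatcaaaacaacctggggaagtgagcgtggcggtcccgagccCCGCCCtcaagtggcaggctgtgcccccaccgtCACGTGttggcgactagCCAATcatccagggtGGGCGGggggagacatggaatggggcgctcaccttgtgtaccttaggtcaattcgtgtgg
For Galk2 and Galt a second start is listed and is not shown. The Galk1 window holds 4 GC boxes and 1 E-box, the Galk2 window 1 GC box and no E-box, and the Galt window 2 GC boxes, 2 CCAAT boxes and 1 E-box. Of 32817 promoter windows, 35.6% hold a GC box, 37.4% a CCAAT box and 7.15% the E-box. The Galk1 window has 23 CG pairs, more than 78.5% of all windows. The Galk2 and Galt windows have 18 and 16 CG pairs, against a median of 7 over all windows. These matches describe letters only.

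Galm (ENSMUSG00000035473, chromosome 17, 80127471 to 80185101, plus strand), which interconverts the 2 ring forms of galactose ahead of the kinase, gave 0, 0 and 7 reads in stem-labelled and 1, 0 and 8 reads in the other libraries. In both groups nearly all reads came from replicate 3, which had 0.0878 RPKM in stem-labelled and 0.321 RPKM in other clones. No fold is given at these counts.

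Galt (ENSMUSG00000036073, chromosome 4, 41755228 to 41758695, plus strand), the uridyltransferase whose loss in people causes classic galactosaemia, had 2.12, 2.08 and 1.71 RPKM in stem-labelled and 2.72, 3.32 and 2.69 RPKM in other clones. The groups did not overlap, but the gap was small: the change of -0.40 ± 0.18 was not called and had the opposite sign after the correction (0.069) and on rescaling (0.26). Galt was the least abundant of the 7 tested genes in both kinds of clone, on 441 reads in stem-labelled and 249 in the other libraries.

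Within a library, Galk1 exceeded Galt by 79.2, 51.0 and 35.9 times in stem-labelled clones and by 2120.2, 828 and 1077 times in other clones. The ratio did not overlap between the groups, for which no count over other pairs of genes was made. Galk1 was chosen for its difference between these groups, so nothing is read from this. The change of Galk1 less that of Galt was -4.71, or -3.73 after the correction. Galt, the enzyme of the step after the kinase, was the scarcer transcript in each library.

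**Figure D2:**
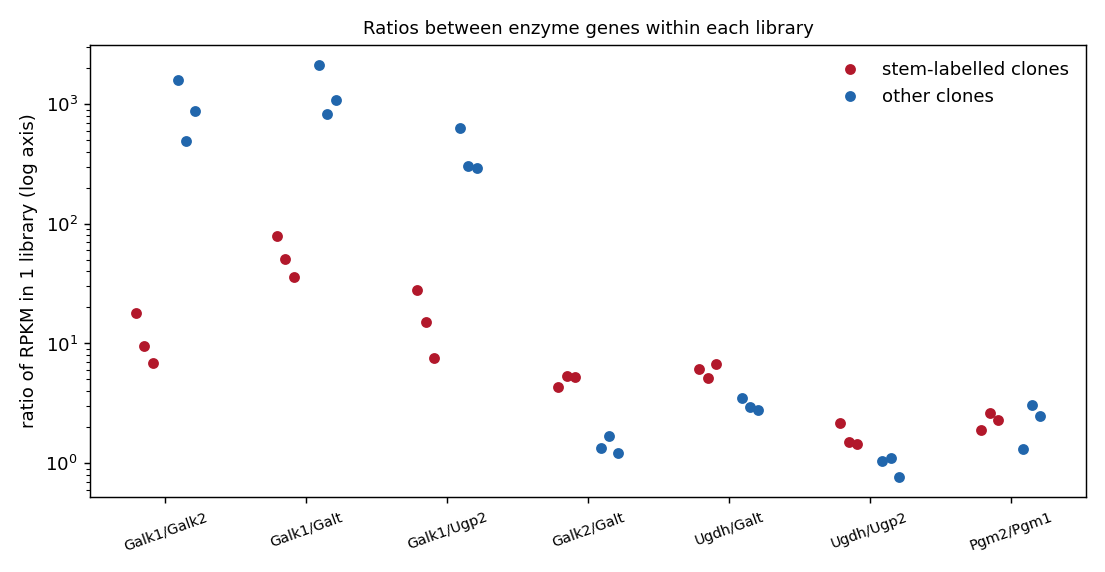
Ratio of the RPKM of 2 genes within 1 library (vertical log axis), 1 point per library, stem-labelled clones in red on the left and other clones in blue on the right of each pair. Galk1/Galk2 runs from 6.84 to 18.1 in stem-labelled and from 494 to 1595 in other clones, whereas Pgm2/Pgm1 overlaps between the groups.

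The phosphoglucomutases carry names that have changed. The gene named Pgm2 in the files (ENSMUSG00000025791, chromosome 4, 99929414 to 99987294) is Pgm1 in GENCODE M21, and the gene named Pgm1 in the files (ENSMUSG00000029171, chromosome 5, 64092950 to 64128351) is Pgm2 there. The file names are kept here, so that Pgm2 is the orthologue of human PGM1, the main phosphoglucomutase. It had 34.9, 37.4 and 28.6 RPKM in stem-labelled and 23.6, 45.7 and 31.6 RPKM in other clones. Pgm1 had 18.4, 14.3 and 12.5 RPKM in stem-labelled and 18.0, 14.9 and 12.8 RPKM in other clones. Both pairs of groups overlapped.

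The group means almost coincided, at 33.6 ± 4.54 RPKM in stem-labelled and 33.7 ± 11.2 RPKM in other clones for Pgm2 (SD, n = 3 each). For Pgm1 they were 15.1 ± 3.03 RPKM in stem-labelled and 15.2 ± 2.60 RPKM in other clones (SD, n = 3 each). The changes were 0.04 ± 0.27 for Pgm2, with the opposite sign after the correction (-0.23), and -0.02 ± 0.23 for Pgm1 (-0.036 after the correction), with the opposite sign on rescaling (0.86). On the rescaled scale the median of all genes was also 0.86 and Pgm2 stood at 0.95. Within a library Pgm2 exceeded Pgm1 by 1.89, 2.63 and 2.29 times in stem-labelled and 1.31, 3.08 and 2.47 times in other clones. Of the exon bases of Pgm2, 13.6% are shared with Itgb3bp on the opposite strand, a gene at 0.752 ± 0.212 RPKM in stem-labelled and 23.8 ± 14.1 RPKM in other clones (SD, n = 3 each), whose part in the Pgm2 reads was not tested.

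Ugp2 (ENSMUSG00000001891, chromosome 11, 21321138 to 21371201, minus strand), which makes UDP-glucose, stood at 5.98, 7.08 and 8.07 RPKM in stem-labelled and 9.16, 8.95 and 9.84 RPKM in other clones. The stem-labelled libraries were all lower on the deposited scale, and the change of -0.37 ± 0.19 had the opposite sign after the correction (0.37) and on rescaling (0.47). Ugdh (ENSMUSG00000029201, chromosome 5, 65413221 to 65435949, minus strand), which makes UDP-glucuronic acid, stood at 13.0, 10.7 and 11.5 RPKM in stem-labelled and 9.53, 9.78 and 7.55 RPKM in other clones. The stem-labelled libraries were all higher, by 0.36 ± 0.20 (0.02 after the correction and 1.21 on rescaling). Ugdh lies in the ninth length decile, in which 51.4% of genes were called higher. Neither gene was called on the deposited scale.

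Set against each other within a library, Ugdh exceeded Ugp2 in stem-labelled clones, with ratios of 2.18, 1.51 and 1.43. In other clones the ratios were 1.04, 1.09 and 0.767, so that the 2 transcripts were at about the same level per length. The groups did not overlap in this ratio as deposited, for which no count over other pairs of genes was made either. The change of Ugdh less that of Ugp2 was 0.73, but had the opposite sign after the correction (-0.35). Ugdh also exceeded Galt by 6.16, 5.14 and 6.75 times in stem-labelled and 3.51, 2.95 and 2.80 times in other clones. The change of Ugdh less that of Galt was 0.76 and -0.053 after the correction, so that it too turned. Ugdh is 6752 and Ugp2 3069 bases long, and the ratios carry the length trend described above.

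The order of the levels per length was Galk1, Pgm2, Pgm1, Ugdh, Galk2, Ugp2, Galt and Galm in stem-labelled clones and Galk1, Pgm2, Pgm1, Ugp2, Ugdh, Galk2, Galt and Galm in other clones. In stem-labelled clones the neighbours whose libraries overlapped were Pgm1 with Ugdh and Ugdh with Galk2. In other clones they were Ugp2 with Ugdh and Galk2 with Galt. The 3 most and 2 least abundant genes had the same places in both kinds.

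**Figure D3:**
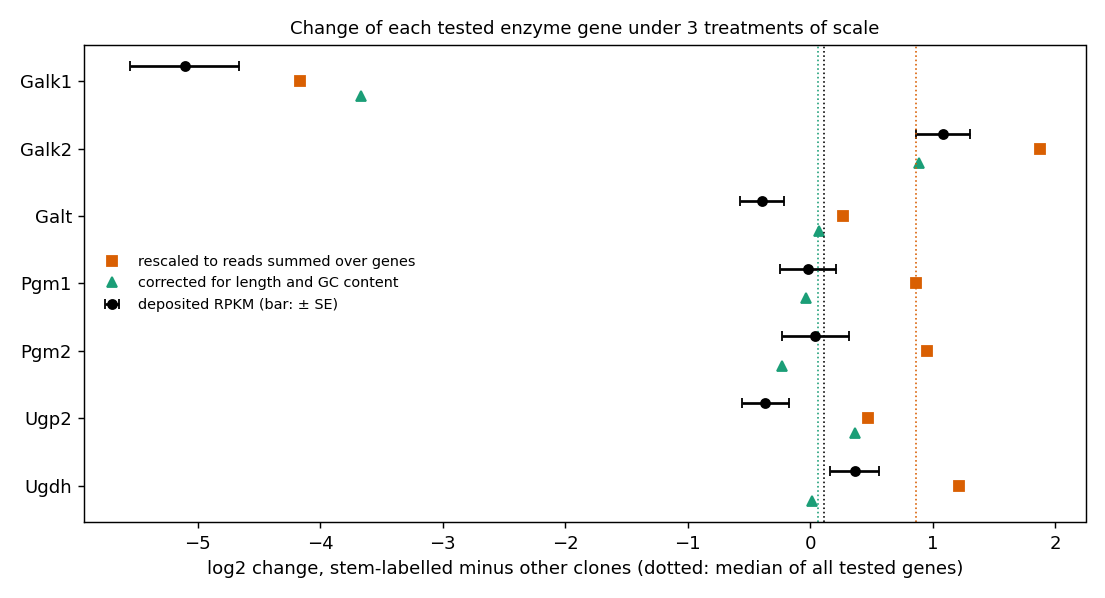
Log2 change (stem-labelled minus other clones, horizontal axis) of the 7 tested genes, as deposited with ± SE (black circles), rescaled to summed reads (orange squares) and corrected for length and GC content (green triangles), with dotted lines at the median of all tested genes on each scale. Galk1 lies below and Galk2 above the median on all 3 scales, while Galt, Pgm1, Pgm2 and Ugp2 change sign between scales.

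**Figure D4:**
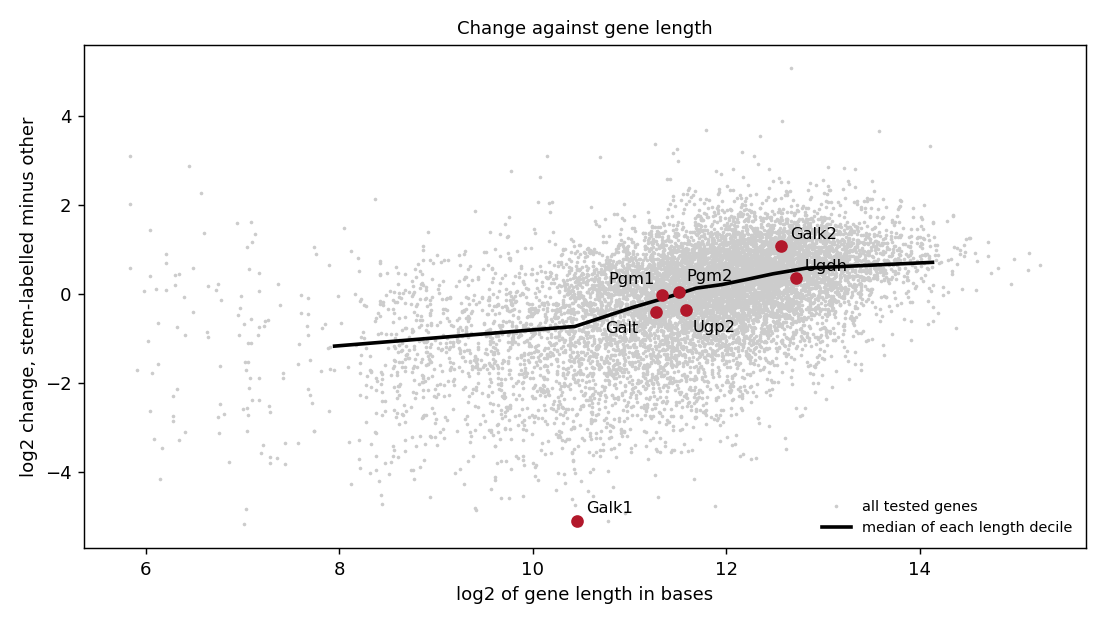
Log2 change (stem-labelled minus other clones) against log2 of gene length for all 10097 tested genes (grey), with the median of each length decile (line) and the 7 tested genes (red). The gap to the median of the length decile is -4.38 for Galk1 and 0.63 for Galk2, and the gaps of the other 5 genes run from -0.50 for Ugp2 to 0.11 for Pgm2.

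Galk1 lies in the second length decile (1075 to 1789 bases), where 48.5% of genes were called lower. Among the transcripts whose pattern over the 6 libraries was most like that of Galk1, by Pearson's correlation of log2(RPKM + 1) among 5950 genes with a mean of at least 5 RPKM, were Slc35c2, Ccdc85b, Fpgs and Fance, each with r = 0.999. Fpgs encodes the folate polyglutamate synthase and Fance a member of the Fanconi anaemia complex. In all 842 genes had r above 0.95. All these values share the same 6 libraries and the difference between their 2 groups. For Ugdh the most alike were Unk, Ube2ql1, Sfxn1, Med4 and Nln, with r of 0.979 to 0.993, and 38 genes were above 0.95.

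Around these enzymes 6 lists of other genes held 89 names, of which 84 were in the files and 70 were tested. Of those, 20 were higher, 16 were lower and 34 were not called (limma, adjusted p under 0.05). That is 36 of 70 against 55.2% of all tested genes, and the median change was 0.21 against 0.11.

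Galactose supply and side routes went both ways. Of 8 tested genes 4 rose (29.9% of all tested genes), 2 fell (25.4% of all) and 2 were not called. Their median was 0.78 (0.93 after the correction). The genes that rose were the lysosomal hydrolases Galc, Gla and Glb1, which free galactose from glycolipids and glycans, and Sord, the sorbitol dehydrogenase. Galc averaged 8.91 ± 0.911 RPKM in stem-labelled and 2.81 ± 0.464 RPKM in other clones (SD, n = 3 each; 1.38 ± 0.19, limma adjusted p = 0.000425, 2.08 after the correction). Glb1, the acid beta-galactosidase, averaged 18.4 ± 1.71 RPKM in stem-labelled and 7.94 ± 3.00 RPKM in other clones (1.17 ± 0.27, limma adjusted p = 0.00508, 1.12 after the correction). Akr1b3, the aldose reductase that can turn galactose to galactitol, was among those that fell, with 10.1 ± 2.02 RPKM in stem-labelled and 19.2 ± 3.95 RPKM in other clones (SD, n = 3 each; -0.85 ± 0.24, limma adjusted p = 0.0133). Its change was -1.76 after the correction (limma adjusted p = 0.00062) and 0.022 on rescaling (limma adjusted p = 0.943).

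Among 18 tested genes of other nucleotide sugars 6 fell (25.4% of all tested genes), 2 rose (29.9% of all) and 10 were not called. Their median was -0.45 (-0.71 after the correction). Tsta3, which makes GDP-fucose, had 34.7, 31.7 and 20.7 RPKM in stem-labelled and 217, 157 and 238 RPKM in other clones (-2.78 ± 0.28, limma adjusted p = 0.000133, -1.59 after the correction). Fuk, the fucose kinase of the salvage route to the same sugar, changed by -1.25 ± 0.22 (-0.85 after the correction), and Pmm1, a phosphomannomutase, by -1.63 ± 0.32 (-1.01 after the correction). On rescaling Fuk stood at -0.39 and was not called (limma adjusted p = 0.164). Uxs1, which turns the product of Ugdh into UDP-xylose, rose, with 10.7 ± 0.932 RPKM in stem-labelled and 5.14 ± 0.166 RPKM in other clones (0.92 ± 0.18, limma adjusted p = 0.00244, 0.79 after the correction).

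Of 17 transferases that use UDP-sugars 8 rose (29.9% of all tested genes), 4 fell (25.4% of all) and 5 were not called. Their median was 0.60 (0.27 after the correction). B4galt1, the main beta-1,4-galactosyltransferase and a consumer of UDP-galactose, had 29.6, 27.2 and 31.8 RPKM in stem-labelled and 6.62, 6.89 and 8.23 RPKM in other clones (1.89 ± 0.20, limma adjusted p = 0.000144, 1.35 after the correction). B4galt5 rose by 1.74 ± 0.25 (1.45 after the correction). The same family went both ways. B4galt2 averaged 12.3 ± 4.24 RPKM in stem-labelled and 36.5 ± 14.1 RPKM in other clones (SD, n = 3 each). Its change was -1.49 ± 0.34 (limma adjusted p = 0.00475, -1.44 after the correction). B4galt3 changed by -0.52 ± 0.19 (-1.22 after the correction) and B4galt4 by 0.73 ± 0.22 (0.52 after the correction). On rescaling B4galt2 stood at -0.60 and B4galt3 at 0.23, neither called. B4galt7 was not called, at -0.18 ± 0.20. Ext1, which builds heparan sulphate from UDP-glucuronic acid and UDP-N-acetylglucosamine, rose by 2.03 ± 0.22 (1.46 after the correction). B3gat3, which adds the glucuronic acid of the linker on proteoglycans, fell, with 56.8 ± 13.2 RPKM in stem-labelled and 460 ± 303 RPKM in other clones (-2.83 ± 0.43, limma adjusted p = 0.000606, -1.50 after the correction). Has2, a hyaluronan synthase that was singled out after its values were seen, had 0.514, 0.708 and 0.931 RPKM in stem-labelled and 9.96, 2.45 and 8.11 RPKM in other clones (-2.04 ± 0.38, limma adjusted p = 0.00186, -1.78 after the correction).

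Of 9 nucleotide sugar transporters 2 rose (29.9% of all tested genes), 1 fell (25.4% of all) and 6 were not called. Their median was 0.11 (0.07 after the correction). Slc35a2, the carrier of UDP-galactose into the Golgi, averaged 3.60 ± 0.123 RPKM in stem-labelled and 3.68 ± 0.835 RPKM in other clones (SD, n = 3 each), a change of -0.01 ± 0.20 (-0.30 after the correction). The member that fell was Slc35b2, the carrier of the sulphate donor PAPS (-2.54 ± 0.34, limma adjusted p = 0.000363, -1.68 after the correction), and Slc35b4 and Slc35d1 rose by 0.94 ± 0.17 and 0.53 ± 0.17 but stood at 0.02 and -0.14 after the correction.

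Of 11 glycogen genes 3 rose (29.9% of all tested genes), 1 fell (25.4% of all) and 7 were not called. Their median was 0.45 (-0.12 after the correction). Gaa, the lysosomal acid glucosidase, rose by 1.69 ± 0.30 (limma adjusted p = 0.00143, 1.95 after the correction). Gys1, which builds glycogen from UDP-glucose, and Gbe1, the glycogen branching enzyme, were not called, at -0.27 ± 0.29 and 0.20 ± 0.24. The kinase subunits Phka1 and Phka2 rose by 0.54 ± 0.18 and 0.64 ± 0.18 but stood at -0.17 and -0.12 after the correction, and Phkg2 fell by 0.80 (-1.31 after the correction). On rescaling Phkg2 stood at -0.16 and was not called (limma adjusted p = 0.638). Of 7 genes that handle glucose phosphates 1 rose (29.9% of all tested genes), 2 fell (25.4% of all) and 4 were not called. Their median was 0.28 (-0.01 after the correction). Hexokinase Hk2 rose by 1.14 ± 0.19 (limma adjusted p = 0.000925), and stood at 0.42 after the correction, where it was not called (limma adjusted p = 0.0569). Slc37a4 and G6pc3, the transporter and the phosphatase of glucose 6-phosphate in the endoplasmic reticulum, changed by -1.33 ± 0.25 and -1.47 ± 0.29, which became -0.75 and -0.69 after the correction. On rescaling they stood at -0.49 and -0.60 and were not called (limma adjusted p = 0.149 and 0.0877).

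**Figure D5:**
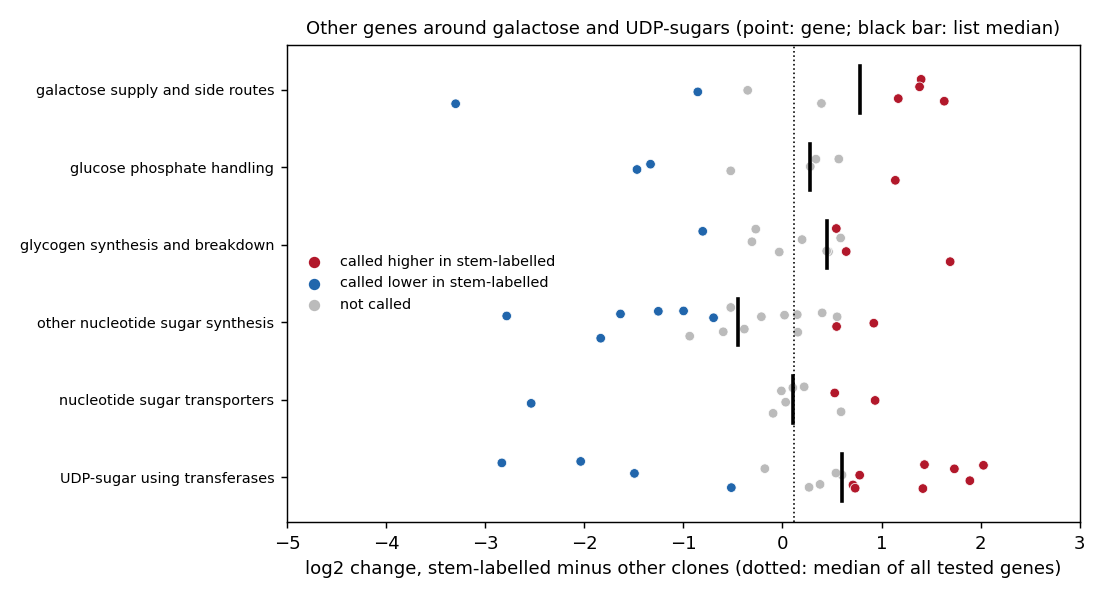
Log2 change (stem-labelled minus other clones, horizontal axis) of each of the 70 tested genes in 6 lists, coloured by whether the gene was called higher (red), called lower (blue) or not called (grey), with a black bar at each list's median and a dotted line at the median of all tested genes. The list medians run from -0.45 for other nucleotide sugar synthesis to 0.78 for galactose supply, and every list holds genes called in each direction.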

How the data were processed

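The authors sequenced RNA of 4T1 clones in 6 libraries. Groups follow the tissue labels, and replicate numbers the titles. The authors deposited RPKM for 19179 genes per library. The submitters' processing notes name Bowtie2 2.0.6, TopHat2 2.0.9 and mm9 without their roles. The counting program and strand are not given in the sources used here. Of the identifiers 99.6% are in GENCODE M21, and 80.6% of these have the same start and end on GRCm38, so positions are given on that build. Each RPKM times gene length was a whole multiple of 1 step per library (tolerance 0.01), which returned the reads.

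Genes were fitted on log2(RPKM + 1) in limma 3.58.1 (R 4.3.3) with a variance trend, two-sided. Benjamini-Hochberg adjustment ran over the 10097 genes that reached 1 RPKM in 3 or more libraries. The code was tested on simulated data. For the corrected values, natural splines of GC content and of log2 length, with 5 degrees of freedom each, were fitted to every library's departures from the mean of each gene and subtracted. Precision was taken from the spread between libraries, which may be partly technical, since the labels do not tie libraries to experiments. Named genes were the 8 enzymes, up to 4 called members with the smallest p of each list, genes next to Galk1 or sharing exons with an enzyme, and the 5 genes most like Galk1 and Ugdh. Not all are described, and some genes that this rule names are not reported here. The members and lists were chosen with earlier results of these data known. Alternatives were the replicate block, leaving out each library, other scalings, filters, pseudocounts and variance models, and limma-voom on recovered reads.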

Additional observations from a re-analysis of the deposited data

How the results depend on the processing

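Galk1 stayed lower (-5.45 to -3.66) and Galk2 higher (0.89 to 1.87) under all 17 alternatives tried, which describes the values they were chosen on and supports nothing. Galt turned to 0.26 on rescaling to summed reads and 0.069 with the length and GC correction, with or without the replicate block. Ugp2 turned to 0.47 and 0.37 under the same settings. Pgm2 turned to -0.10 with limma-voom on recovered reads and -0.23 with the correction, and ranged from -0.18 to 0.28 when single libraries were left out, while Pgm1 turned to 0.23 with upper-quartile scaling and 0.86 on rescaling, and ranged from -0.16 to 0.10. Rescaling called 5 of the 8 genes, 4 of them higher, Pgm1, Pgm2 and Ugdh being added, and upper-quartile scaling called 2 higher, with Ugdh at 0.60. Nothing is read from these counts. Over all genes rescaling gave 5926 higher and 1245 lower, and a filter of mean RPKM at least 5 gave 3477 calls, 1405 higher. For the 6 lists these settings gave 45 higher and 7 lower, and 12 higher. The stricter filter tests fewer genes and drops Galt; otherwise the cause was not tested. Leaving out single libraries gave 4747 to 5555 calls over all genes and 30 to 36 in the lists. With the replicate number as a block, 5212 genes and 33 list genes were called, and the same 2 of the 8 enzymes. Deviations of same-numbered libraries correlated at -0.12, 0.03 and -0.08, so the numbers are not taken as pairs. Galm and Galt, on 7 to 441 reads a group, limit what can be said of them.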
